A study of Mus musculus with 8 samples.

Results

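The MAPK phosphatase genes Dusp1, Dusp2, Dusp4, Dusp5, Dusp6, Dusp7, Dusp8, Dusp10, Dusp14 and Dusp16 were measured in mouse macrophages on 8 whole-transcript arrays made by Affymetrix. They are 10 of the 24011 named genes of the table. Each was taken as the probe set whose number equals the gene's Entrez number, and all 10 were found. The macrophages had been grown from the bone marrow of wild-type mice aged 8 to 10 weeks with M-CSF from L cell-conditioned medium. The treated group of 4 samples received hepcidin at 10 µg/ml for 1 h and the control group of 4 received PBS, with no other agent or allele named for either group. The liver hormone hepcidin acts on ferroportin, the exporter of cellular iron, and leads to its breakdown. The comparison asks which genes of these cells respond within 1 h. The sample titles number each group from 1 to 4 without saying what a number stands for. Nothing says that the samples came from separate animals or cultures, and the p-values therefore reflect a spread that may be technical.

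MAP kinases (ERK, JNK and p38) are switched on when a threonine and a tyrosine of their activation loop are phosphorylated, and the dual-specificity phosphatases remove both phosphates. Many of the phosphatase genes are themselves induced by the kinases they switch off, so they form a negative feedback loop. In macrophages stimulated with bacterial products, Dusp1 is the best known of them and limits cytokine production by acting on p38 and JNK. The family falls into inducible nuclear enzymes (Dusp1, Dusp2, Dusp4, Dusp5), cytoplasmic enzymes that prefer ERK (Dusp6, Dusp7) and enzymes that prefer JNK and p38 (Dusp8, Dusp10, Dusp16). Dusp14 is a small, atypical member without the kinase-binding domain of the others.

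Values are the authors' log2 values, made with the array summary method RMA, and a difference of 1 is a ratio of 2 before any compression near background. Array medians lay between 4.87 and 4.95. The change was fitted within pairs, which were set by the number in the titles. Arrays with the same number also deviated from their group mean together (correlation across genes of 0.344 to 0.548 for the 4 pairs). Of 10 measured macrophage markers, 9 had a mean level of at least 6, and Cd163, a scavenger receptor gene, averaged 4.99 with hepcidin and 5.02 with PBS. Of 25 markers of lymphocytes (B, T and NK cells) and endothelium, 22 averaged under 6 with PBS (the highest of these was 5.47), and Cd28, Kdr and Vwf lay above. These are RNA pools of many cells, in which fewer cells of a type and less RNA per cell cannot be told apart.

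Start-proximal sequence was taken from RefSeq (GRCm38.p6), where 9 of the 10 genes had an entry and Dusp4 had none. Shown are the 250 bases before the annotated start of Dusp5 and Dusp8, the members that were higher with hepcidin in 4 of 4 pairs, and of Dusp1, which shares a motif with Dusp8. Capitals mark CArG boxes in Dusp5 (the motif read by serum response factor) and the cAMP response element TGACGTCA in Dusp8 and Dusp1, both searched on either strand.
Dusp5, chr19:53528895-53529144, plus strand: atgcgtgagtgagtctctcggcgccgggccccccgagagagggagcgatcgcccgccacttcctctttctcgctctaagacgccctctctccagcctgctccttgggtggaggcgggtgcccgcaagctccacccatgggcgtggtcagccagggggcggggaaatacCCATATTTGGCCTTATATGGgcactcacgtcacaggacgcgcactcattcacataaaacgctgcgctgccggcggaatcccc
Dusp8, chr7:142095285-142095534, minus strand: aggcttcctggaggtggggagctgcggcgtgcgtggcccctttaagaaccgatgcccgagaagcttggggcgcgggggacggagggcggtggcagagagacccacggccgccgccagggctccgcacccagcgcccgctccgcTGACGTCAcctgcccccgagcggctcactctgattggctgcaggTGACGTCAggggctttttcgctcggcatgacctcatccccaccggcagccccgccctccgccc
Dusp1, chr17:26508473-26508722, minus strand: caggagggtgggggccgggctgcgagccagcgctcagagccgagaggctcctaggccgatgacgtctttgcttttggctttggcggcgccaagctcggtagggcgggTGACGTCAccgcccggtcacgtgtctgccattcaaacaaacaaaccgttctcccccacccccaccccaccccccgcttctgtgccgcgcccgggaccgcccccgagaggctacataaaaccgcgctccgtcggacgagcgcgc

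In Dusp5 a pair of CArG boxes stood end to end, with first bases 82 and 72 bases before the start. A CArG box was present in 1 of the 9 members and in 1.47% of 32841 windows of this length. The cAMP response element stood 107 and 63 bases before the start of Dusp8 and 143 bases before that of Dusp1, and was present in 1.55% of windows. The NF-kB motif, present in 7.25% of windows, the AP-1 motif TGANTCA (6.75%) and the TATA box TATAAA (12.37%) matched in 0 of the 9 members. The Sp1 motif GGGCGG was found in 7 of 9 members and in 32.75% of windows, and the E-box CACGTG in Dusp1 and Dusp2 and in 6.02% of windows. In Dusp1 the E-box, 126 bases before the start, did not overlap the response element, and in Dusp16 one pair of Sp1 matches shared a base. These are letter matches in a short window, not sites shown to be bound.

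At rest, the PBS means of Dusp7, Dusp1 and Dusp6 lay at the 96.8th, 94.0th and 93.4th percentile of all genes on the arrays, above 24 of the 25 lymphocyte and endothelial markers. Dusp4 and Dusp16 lay at the 87.5th and 73.5th percentile, and Dusp2, Dusp5, Dusp10 and Dusp14 between the 62.4th and the 66.7th, above 22 markers. Dusp8 was the dimmest, at the 46.8th. Probe sets differ in brightness for the same amount of RNA, so this places each signal against background and does not order the genes by RNA.

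The measured changes of the phosphatase genes after 1 h of hepcidin were small. With the sample number as a block in limma, 0 members reached the threshold (adjusted p of 0.05, Benjamini-Hochberg across the table), which 1 gene of the table did (0.00416%). The smallest adjusted p of a member was 0.784, for Dusp5, the nuclear phosphatase that acts on ERK. There were 8 members that had a log2 change above 0 and 2 below, where 50.4% of all genes lay above 0. The median change of the members was 0.10, against 0.00095 over all genes. At an unadjusted p under 0.05 there was 1 member, Dusp5, against 2.34% of all genes that were higher at that threshold. In either direction 1179 genes were under it, where 5% of the table is 1201. Without the block limma gave 0 genes past the threshold, and the 1 member at an unadjusted p under 0.05 was Dusp2. In that fit 686 of the 24011 genes were under it in either direction.

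**Figure D1:**
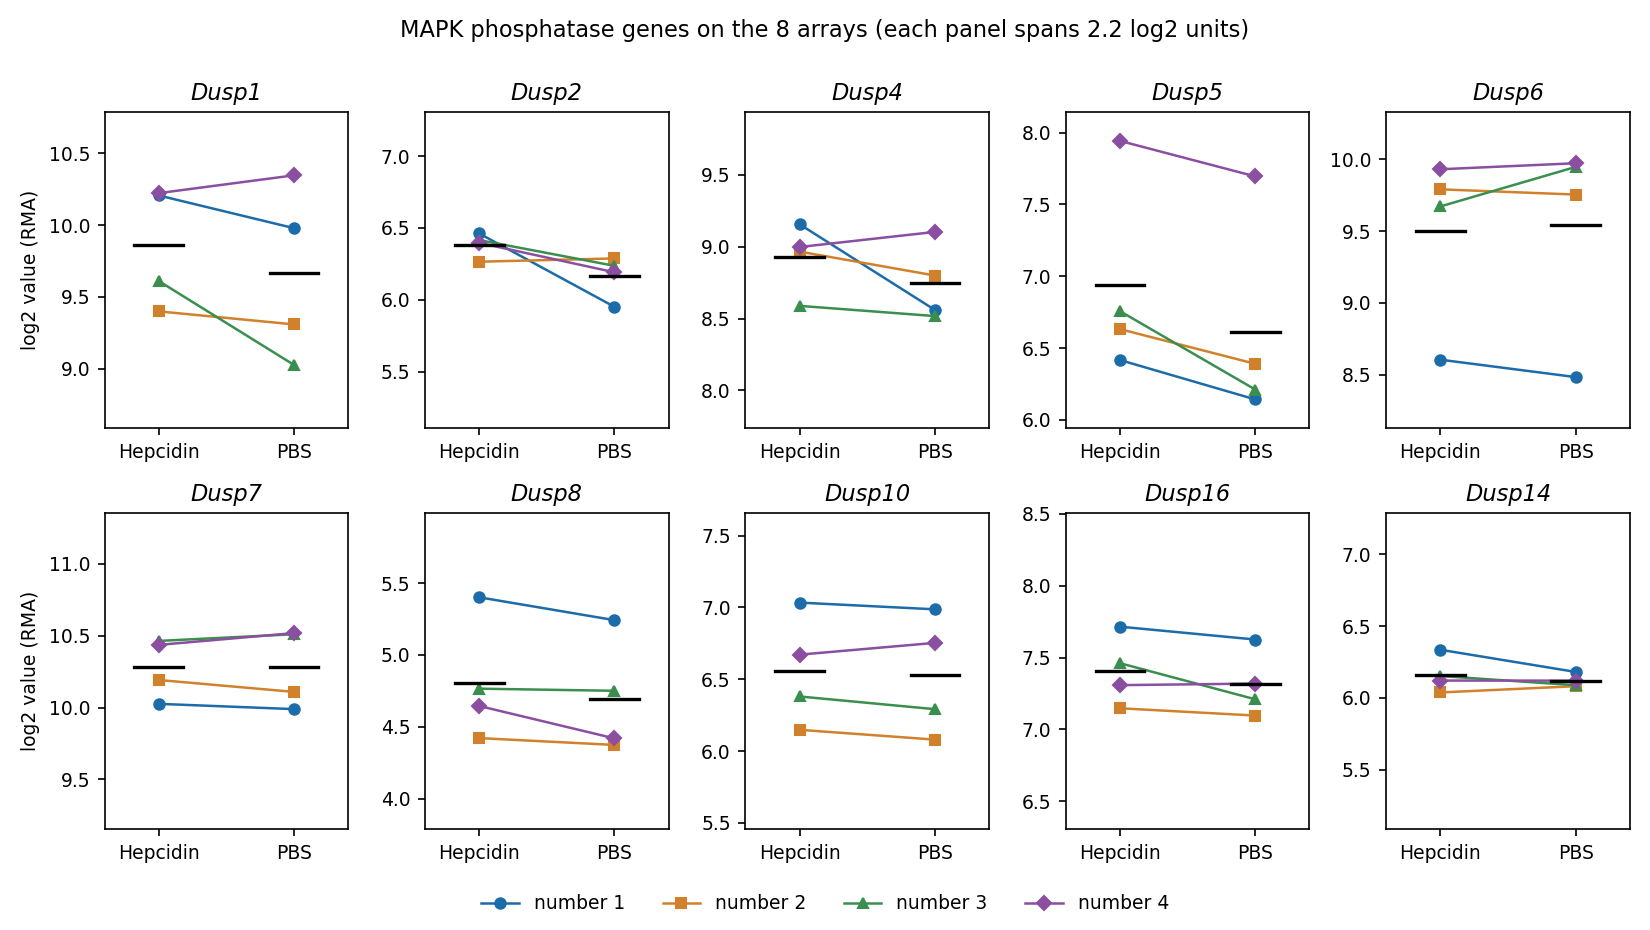
Log2 values of the 10 genes on the 8 arrays, hepcidin left and PBS right in each panel. Lines join arrays with the same number, black bars are group means (n = 4 each), and each panel spans 2.2 log2 units; the lines of different numbers spread by 1.54 for Dusp5 and 1.41 for Dusp6 but by 0.12 for Dusp2, and the steepest lines are Dusp4 number 1 (0.60) and Dusp1 number 3 (0.58).

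Among the nuclear enzymes, Dusp5 (Entrez gene 240672) stood at 6.42, 6.63, 6.76 and 7.94 with hepcidin on numbers 1 to 4, against 6.14, 6.39, 6.21 and 7.69 with PBS. Both arrays numbered 4 stood above the other 6, and the groups overlapped, yet the hepcidin array was the higher one in every pair. The changes were 0.27, 0.24, 0.55 and 0.25 in pairs 1 to 4. The fitted change was 0.33 ± 0.08 (SE), a ratio of 1.25 with a 95% interval from 1.1 to 1.43 and an unadjusted limma p of 0.00417. Without the block the SE was 0.39 and the unadjusted limma p 0.426, and dropping 1 of the high arrays numbered 4 left its partner unmatched. That gave -0.0079 without the hepcidin array and 0.69 without the PBS array (unadjusted limma p 0.982 and 0.0578). When both arrays of a number were left out the change lay between 0.25 and 0.36.

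Dusp2 (13537), a nuclear phosphatase gene expressed mainly in immune cells, stood at 6.46, 6.26, 6.42 and 6.40 with hepcidin, against 5.95, 6.29, 6.24 and 6.19 with PBS. The groups overlapped only through pair 2, where the PBS array was higher by 0.02. The change was 0.22 ± 0.10 (SE), a ratio of 1.16, with unadjusted limma p-values of 0.0546 with the block and 0.0423 without it. Pair 1 gave 0.51, and the change was 0.12 without both arrays numbered 1 and 0.30 without both numbered 2 (unadjusted limma p 0.201 and 0.0246).

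Dusp1 (19252) was among the brighter probe sets of the array, at 10.21, 9.40, 9.61 and 10.22 with hepcidin and 9.98, 9.31, 9.03 and 10.35 with PBS. Numbers 1 and 4 were high and numbers 2 and 3 low in both groups. The change ran from -0.12 in pair 4 to 0.58 in pair 3, with a fitted value of 0.19 ± 0.11 (SE; unadjusted limma p 0.130). Without both arrays numbered 3 it was 0.06, and without both numbered 4 it was 0.30 (unadjusted limma p 0.0384).

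Dusp4 (319520), a nuclear phosphatase that acts on ERK and JNK, stood at 9.16, 8.97, 8.59 and 9.0 with hepcidin and 8.56, 8.80, 8.52 and 9.10 with PBS. Its change of 0.18 ± 0.11 (SE; unadjusted limma p 0.153) held 0.60 from pair 1 and -0.10 from pair 4. It was 0.04 without both arrays numbered 1 and 0.28 without both numbered 4 (unadjusted limma p 0.626 and 0.0598). Dusp1 and Dusp4 thus had PBS above hepcidin on number 4, where Dusp2 and Dusp5 had hepcidin above PBS.

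For the cytoplasmic ERK phosphatases the pairs lay on both sides of 0. Dusp6 (67603), a feedback inhibitor of ERK, stood at 8.60, 9.79, 9.67 and 9.93 with hepcidin and 8.48, 9.75, 9.95 and 9.97 with PBS. It was low on both arrays numbered 1, and 2 of 4 pairs were higher with hepcidin. The change was -0.04 ± 0.09 (SE), with a ratio interval from 0.85 to 1.12. Dusp7 (235584), its close relative, averaged 10.28 ± 0.21 with hepcidin and 10.28 ± 0.27 with PBS (SD, n = 4 each), with pair changes from -0.08 to 0.08. Its ratio interval ran from 0.89 to 1.12.

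Of the JNK and p38 phosphatases, Dusp8 (18218) stood at 5.40, 4.42, 4.77 and 4.65 with hepcidin and 5.24, 4.37, 4.75 and 4.42 with PBS. It was higher with hepcidin in 4 of 4 pairs, but by 0.01 in pair 3 and 0.05 in pair 2, and its change of 0.11 ± 0.07 (SE) had an unadjusted limma p of 0.170. Its levels lay among those of the background markers, of which 19 of 25 were lower with PBS, a range in which array values understate ratios. Dusp10 (63953) averaged 6.56 ± 0.38 with hepcidin and 6.53 ± 0.42 with PBS (SD, n = 4 each), and its change of 0.03 ± 0.07 (SE) was above 0 in 3 of 4 pairs. Dusp16 (70686) averaged 7.41 ± 0.24 with hepcidin and 7.31 ± 0.23 with PBS (SD, n = 4 each). Its change of 0.10 ± 0.08 (SE) held 0.25 from pair 3 and lay between -0.01 and 0.09 in the others.

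Dusp14 (56405) varied least between the PBS arrays. It averaged 6.16 ± 0.13 with hepcidin and 6.12 ± 0.05 with PBS (SD, n = 4 each). The change was 0.04 ± 0.07 (SE), with a ratio interval from 0.92 to 1.16.

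**Figure D2:**
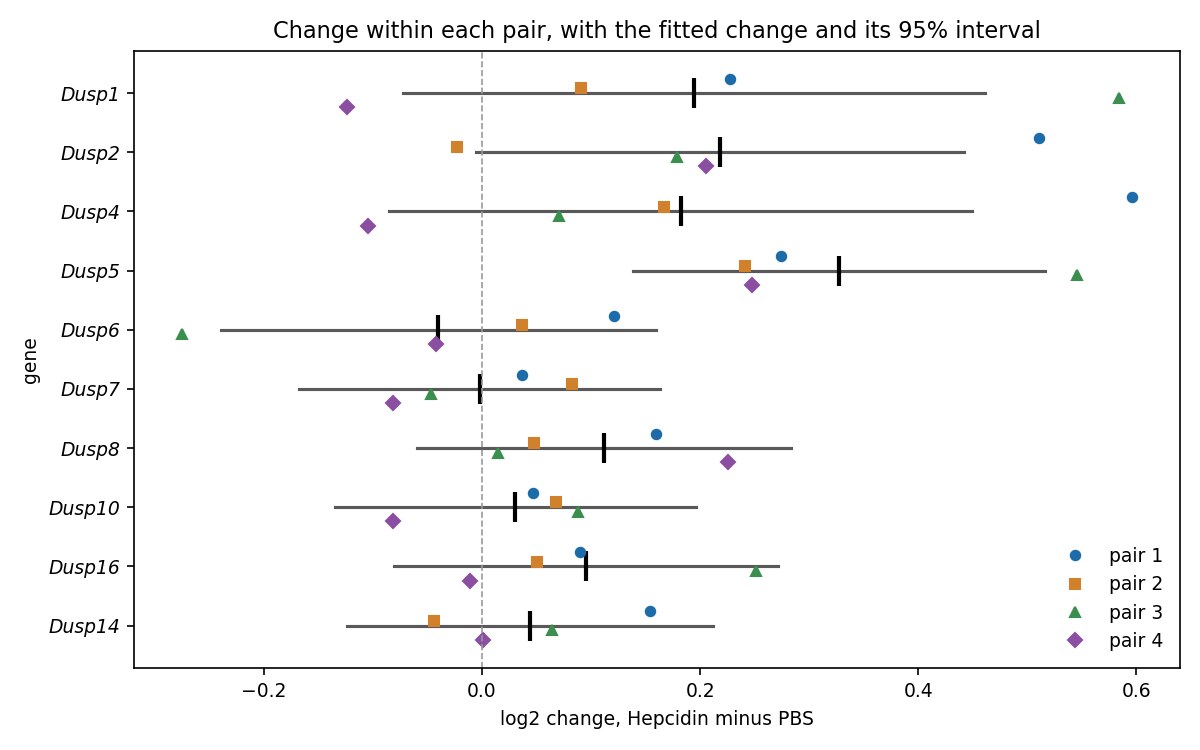
Log2 change, hepcidin minus PBS, of each gene in pairs 1 to 4 (symbols), with the fitted change (tick) and its 95% interval (line) from limma with the sample number as a block. The interval of Dusp5, from 0.14 to 0.52, is the one that lies above 0.

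Of the 10 members, 2 (Dusp5 and Dusp8) were higher with hepcidin in 4 of 4 pairs, against 5.69% of all genes, and 0 were lower in 4 of 4, against 5.92%. The groups did not overlap for 0 members, against 1.88% of all genes. The count of members higher in every pair depended on the pairs kept. It was 6 without number 4, where 13.2% of all genes were higher in the other 3 pairs. It was 4 without number 2 (11.1%), 2 without number 1 (11.4%) and 2 without number 3 (11.9%). The intervals of the 9 members other than Dusp5 held ratios from 0.85 to 1.38 with the block. Without it the log2 intervals of the members reached from -0.86 to 1.21, so that fit does not bound the changes closely.

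As for most genes of the table, more of the variation of the phosphatase genes lay between sample numbers than between treatments. In a split of each gene's sum of squares over the 8 arrays, the number held 87.7% for Dusp1, 92.4% for Dusp5, 96.2% for Dusp8, 98.2% for Dusp6 and 98.9% for Dusp10. It held a larger share than treatment in 9 of 10 members, against 88.5% of all genes and 95.3% of those that averaged 6 or more, so the count does not set the members apart. The number has 3 degrees of freedom and treatment 1, which favours the number. The exception was Dusp2, with 51.9% on treatment and 8.39% on the number. The median share of the number was 90.9% over the members, 74.8% over the 9274 genes that averaged 6 or more and 55.7% over all genes, and the median share of treatment was 4.83% over the members and 5.12% over all genes. These shares are descriptions, and brighter genes had larger shares of the number.

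The members did not follow 1 common order of the numbers. Averaged over both treatments, Dusp5 ranged by 1.54 between numbers, from 6.28 on number 1 to 7.82 on number 4. Dusp6 ranged by 1.41, with 8.54 on number 1 and 9.77 to 9.95 on the others. Dusp8 and Dusp10 were instead highest on number 1, at 5.32 and 7.01, and lowest on number 2, at 4.40 and 6.11. Dusp2 ranged by 0.12, less than its change with hepcidin.

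On the arrays numbered 1, markers of other cells stood apart as well. The 12 neutrophil and precursor markers averaged 4.62 with hepcidin and 4.76 with PBS on number 1, against 5.66 to 6.05 on the other 6 arrays, and 9 of the 12 were lower on both arrays numbered 1 than on every other array. By treatment the list ranged from 4.62 to 6.0 with hepcidin and from 4.76 to 6.05 with PBS. The 10 macrophage markers averaged 10.46 with hepcidin and 10.38 with PBS on number 1, and 10.73 to 10.85 elsewhere. Of these 10, 5 were lower on both arrays numbered 1 than on every other array. The part of either marker list in the levels of Dusp6, Dusp8 and Dusp10 on number 1 was not tested.

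**Figure D3:**
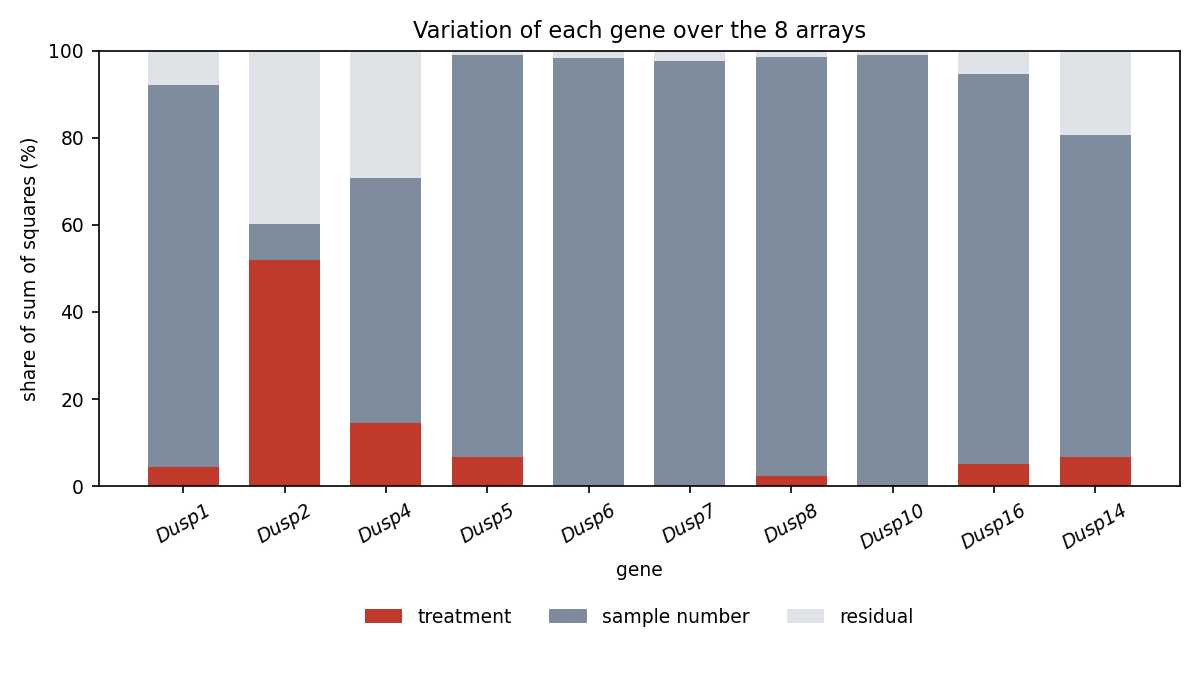
Share of each gene's sum of squares over the 8 arrays held by treatment, sample number and residual, in percent. The number takes the larger part of each bar but that of Dusp2, where treatment holds 51.9%.

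For Dusp5, Dusp2 and Dusp1, the members with the largest changes, the genes most alike in pattern were sought by Pearson correlation over the 8 arrays among 9265 genes with a mean of at least 6. For Dusp5 these were Chst11 (0.979), Ctsh, the cathepsin H gene (0.979), and the chemokine gene Cxcl16 (0.976), whose own changes were 0.12, 0.08 and 0.13. For Dusp1 they were Abr (0.974), Cyp4f13 (0.970) and Ralgapa2 (0.969), with changes of 0.03, 0.01 and 0.06. For Dusp2 they were Sumf1 (0.957), N4bp1 (0.940) and Mrpl57 (0.933), with changes of 0.05, 0.17 and 0.08. For each member these are the highest of 9265 correlations over only 8 arrays, a choice that by itself gives high values. No correlation was tested. The 8 points share the sample numbers, which hold most of the variation of Dusp5 and Dusp1.

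Around the phosphatases, 116 of 125 genes of 10 lists on MAP kinase signalling and its neighbours were measured, and the other 9 were not analysed here. At an unadjusted limma p under 0.05 there were 14 higher and 0 lower. Of all 24011 genes, 2.34% were higher at that threshold and 1179 were under it in either direction. Of the 14, 9 were in the NF-kB list and 3 among the early genes driven by ERK. The lists were chosen with earlier results of these data known, so the count is no test of the pathways. In limma 1 gene passed over all genes, the chemokine gene Cxcl2, which averaged 7.82 with hepcidin and 5.57 with PBS. It was higher in 4 of 4 pairs (change 2.25 ± 0.17 SE, adjusted p 0.0405). That call was lost without the block, with the block as a random term, after quantile or loess normalization, without both arrays numbered 2, 3 or 4, and in the 8 fits without the block that left out 1 array (limma adjusted p from 0.0575 to 1.00 in these fits, the higher bound without the block).

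Among the kinase genes no change passed. Of 11 MAP kinases, 6 MAP2 kinases and 15 MAP3 kinases, 0 passed, and 1 had an unadjusted limma p under 0.05, the MAP3 kinase gene Map3k8, whose product activates the ERK pathway downstream of Toll-like and TNF receptors. Map3k8 stood at 8.23, 8.06, 8.26 and 8.24 with hepcidin and 8.05, 7.85, 7.66 and 7.79 with PBS. The groups did not overlap, though by a margin of only 0.01, and the change was 0.36 ± 0.09 (SE; limma adjusted p 0.784). The median changes were -0.05 for MAP kinases, 0.06 for MAP2 kinases and 0.03 for MAP3 kinases. The p38 genes Mapk11 and Mapk12 had changes of -0.20 ± 0.11 and -0.15 ± 0.07 (SE). The other p38 genes, Mapk13 and Mapk14, were at -0.11 and 0.0002, and Mapk14 was brighter, at 8.19 with PBS. Mapk12 was dim, at 4.42 with PBS, where 17 of the 25 background markers were lower. The p38 activator gene Map2k3 and the ERK activator gene Map2k2 had changes of 0.18 ± 0.09 and 0.17 ± 0.10 (SE).

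Kinases activated by MAP kinases had a median change of 0.04 over 7 genes, with Mapkapk2, the p38 effector that stabilises cytokine mRNA, at 0.11 ± 0.07 and Mknk1 at 0.14 ± 0.09 (SE). Other phosphatases that act on MAP kinases had a median of 0.05 over 9 genes, with the PP2C genes Ppm1a at 0.12 and Ppm1b at 0.09. The other 19 genes of the DUSP family had a median of -0.02, with Dusp13 at -0.28 ± 0.12 and Dusp12 at 0.15 ± 0.08 (SE). Dusp13 was dim, at 4.59 with PBS, where 18 of the 25 background markers were lower. Other feedback inhibitors of ERK had a median of -0.01 over 9 genes, with Rasa1, a Ras GTPase activator, at -0.13 and Spry1 at 0.12. Spry1 was dim as well, at 4.75 with PBS (19 of 25 markers lower). In these lists 0 genes passed in limma and 0 had an unadjusted p under 0.05.

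Of 18 early genes driven by ERK, 0 passed and 3 had an unadjusted limma p under 0.05, all higher. Of all genes, 2.34% were higher at that threshold. The 3 were Junb, Ier3 and Fos, with Fos at 0.28 ± 0.10 (SE). Egr1, Egr2 and Egr3 were at -0.06, 0.04 and 0.02, and 13 of the 18 had a change above 0. Junb, an AP-1 subunit gene, averaged 8.43 ± 0.19 with hepcidin and 8.00 ± 0.27 with PBS (SD, n = 4 each), a change of 0.44 ± 0.07 (SE). Ier3, a survival gene that NF-kB also drives, averaged 7.89 ± 0.38 with hepcidin and 7.28 ± 0.17 with PBS (SD, n = 4 each), a change of 0.61 ± 0.13 (SE). The list's median of 0.07 lay near the 0.10 of the phosphatases. Of 12 genes induced by glucocorticoid or cAMP, which also drive Dusp1, the median change was 0.01, with Sgk1 at 0.13 ± 0.07 (SE). In this list 0 passed and 1, Pde4b, had an unadjusted limma p under 0.05, beside the same 2.34% of all genes. Pde4b was at 0.57 ± 0.08 (SE; limma adjusted p 0.236). It was higher in 4 of 4 pairs, and the groups did not overlap. Pde4b was dim, at 4.53 with PBS, where 18 of the 25 background markers were lower.

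The 10 genes of the NF-kB list, set beside the phosphatases for scale, had a median change of 0.76, from 0.09 to 2.25. The list holds feedback genes together with the cytokine gene Tnf (1.28) and the chemokine gene Cxcl2 (2.25). Its feedback genes reached 1.24, for Nfkbiz. All but Nfkbib, 9 genes in all, had an unadjusted limma p under 0.05 and were higher in 4 of 4 pairs. Of all genes, 2.34% were higher at that threshold and 5.69% were higher in 4 of 4 pairs. Only Cxcl2 passed the adjusted threshold, and the list was chosen with earlier results of these data known. The difference between that list and the phosphatases was not tested.

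**Figure D4:**
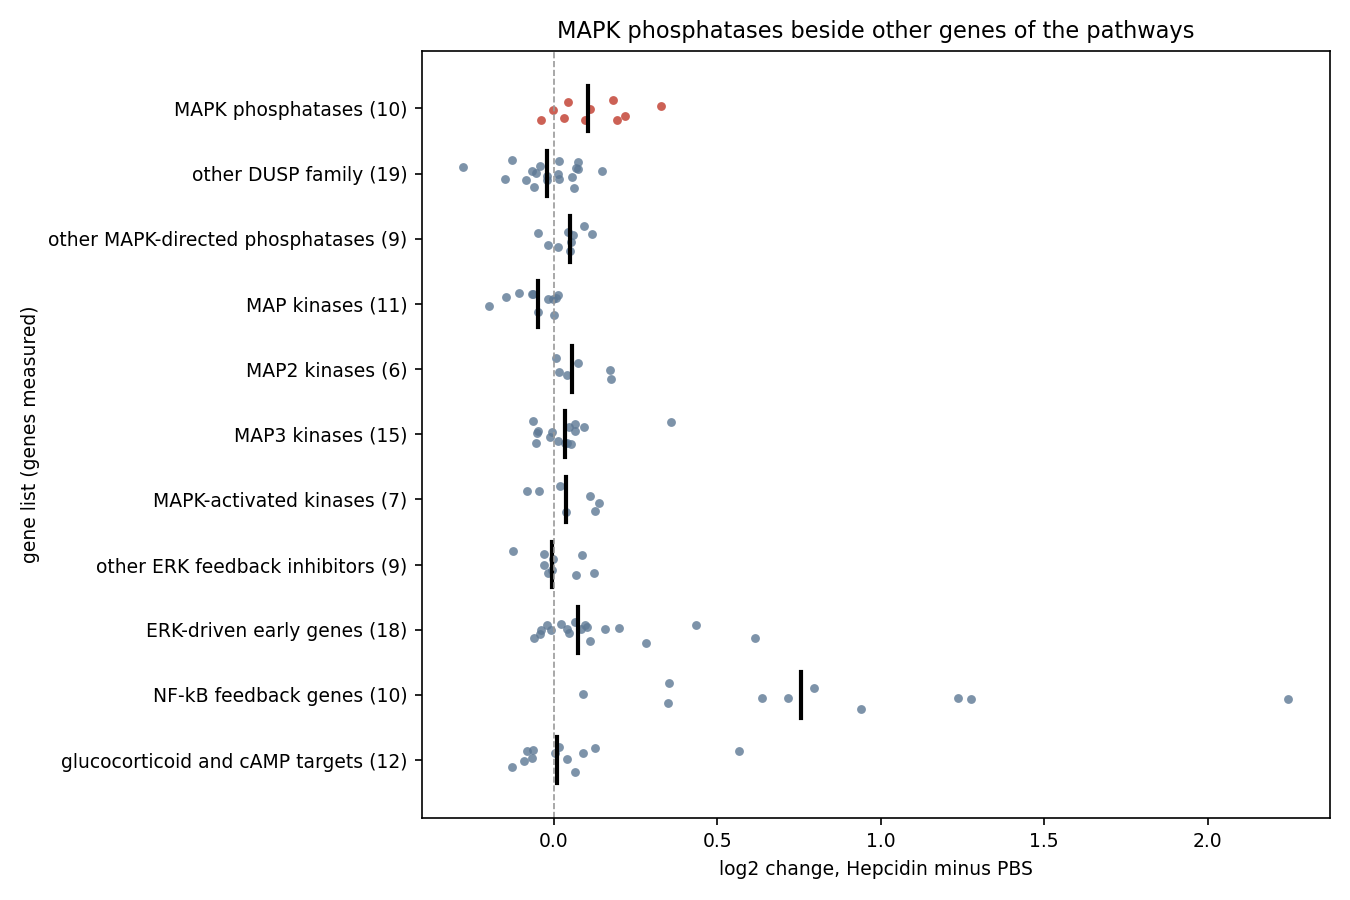
Log2 change, hepcidin minus PBS, of each measured gene (points) in the phosphatase set (top) and 10 other lists, with the list median as a black bar and the number of genes in brackets. The phosphatases lie between -0.04 and 0.33 around a median of 0.10. The list labelled NF-kB feedback genes, which also holds Tnf and Cxcl2, reaches 2.25 with Cxcl2.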

How the data were processed

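The deposited values are log2 RMA summaries, and the submitters' processing notes name affy 1.36.1. In RMA the background is corrected, the arrays are quantile normalized and the probes of a set are combined, which compresses ratios near background. Which probe set definition and build the authors used is not given in the sources used here. The log2 values (1.73 to 13.6) were taken without further normalization. Raw intensities and scan dates were not used.

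Of 24973 probe sets, 24015 had a gene symbol in the platform annotation, and 958 had none. For 4 repeated symbols the brightest probe set was kept, leaving 24011 genes. Probe sets differ in response, so levels were placed against markers and not compared between genes as amounts of RNA. Groups and numbers came from the sample titles. Limma 3.58.1 in R 4.3.3 (lmFit, eBayes) fitted hepcidin minus PBS over all genes with the number as a fixed block, adjusted by Benjamini-Hochberg with a threshold of 0.05. The comparison was set as paired by the number in the titles, and same-numbered arrays deviated together by more than 0.1 in each pair (0.344 to 0.548, against -0.356 to 0.124 for different numbers). The fit was tested on simulated data. The number of arrays limits the precision.

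The members, the gene lists and the tests were chosen with earlier results of these data known. Genes of the other lists were named if past the threshold, or otherwise as the 2 with the smallest unadjusted p. Nfkbib, Nfkbiz, Tnf, Fos, Egr1, Egr2, Egr3, Mapk13 and Mapk14 are given for context only. Motifs were searched in RefSeq windows of 250 bases before the start. Alternatives were no block, a random block, 3 normalizations, 2 filters on dim genes, trend and robust variance, array weights, all probe sets, and leaving out each number or each array. Figures used matplotlib 3.10.9.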

Additional observations from a re-analysis of the deposited data

Results flagged for a closer look

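In each group of 4 arrays it was asked whether the highest or lowest array stood apart from the rest by more of the group's range than Dixon's 95% critical value for 4 arrays. Of 58 groups of the named genes, 7 did, where chance gives 2.9 for independent genes. Among the phosphatases these were Dusp5 on the PBS array numbered 4, at 7.69 with the next array at 6.39, and Dusp6 on the PBS array numbered 1, at 8.48 with the next at 9.75. The hepcidin arrays of the same numbers lay on the same side, at 7.94 for Dusp5 and 8.60 for Dusp6. The others were Map3k8 on the hepcidin array numbered 2 (8.06), Map3k6 on the hepcidin array numbered 1 (5.69), Rasa1 on the hepcidin array numbered 1 (9.92), Spry1 on the hepcidin array numbered 4 (5.15) and Dusp13 on the PBS array numbered 3 (4.24).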

How the results depend on the processing

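No member passed the adjusted threshold under any of the 22 alternatives; the smallest adjusted p of a member was 0.330, for Dusp5 among the genes with a mean of at least 6. Of 218 member changes under alternatives, 196 kept their direction and 22 reversed. With all arrays kept, only Dusp7 did, at 0.014 after median centring and 0.00097 after quantile normalization. Leaving out a number with the block gave -0.094 to 0.038 for Dusp6 and -0.031 to 0.024 for Dusp7, and no other member reversed there. The other reversals came without the block and without 1 array, which leaves its partner unmatched, so that differences between numbers enter the change. Without the hepcidin array numbered 1, Dusp6 was at 0.26, Dusp7 at 0.082, Dusp8 at -0.086, Dusp10 at -0.13, Dusp14 at -0.014, Dusp16 at -0.0073 and Sgk1 at -0.11. Without hepcidin number 2, Dusp7 was at 0.027, and without hepcidin number 4, Dusp5 was at -0.0079 and Dusp10 at -0.0073. Without PBS number 2, Dusp6 was at 0.032 and Dusp10 at -0.12. Without PBS number 3, Dusp1 was at -0.018, Dusp6 at 0.096, Dusp7 at 0.074, Dusp10 at -0.048 and Sgk1 at -0.072, and without PBS number 4, Dusp6 was at 0.10, Dusp7 at 0.077 and Ppm1b at -0.00065. With the block, leaving out numbers gave 0.25 to 0.36 for Dusp5, 0.06 to 0.30 for Dusp1, 0.12 to 0.30 for Dusp2 and 0.04 to 0.28 for Dusp4.

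The number of genes past the threshold was 1 in the fit with the replicate block. It was 0 with no replicate block, 5 with a random block, 0 after quantile normalization, 0 after cyclic loess, 6 among genes with a mean of at least 6, 4 among genes at or above the median level and 8 with trend and robust variance, and lay between 0 and 2 when arrays were left out. Among the genes of the other lists it was 0 with no replicate block, 4 with a random block, 0 after quantile normalization or cyclic loess, 6 and 4 under the filters at 6 and at the median level, 6 with trend and robust variance, and 0 to 2 without arrays. Members higher in every pair numbered 1 under either filter, which removes Dusp8, and 2 to 6 without a number. After cyclic loess they numbered 3. Members at an unadjusted p under 0.05 numbered 2 after quantile normalization and under either filter, and 0 to 2 without arrays. Apart from the pairs without a number, shares of all genes under these alternatives are not given. The counts of members therefore do not set the members apart. The cause of the differences between settings was not tested.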
